A study of Rattus norvegicus with 16 samples.

Results

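The 6 genes described here mark GABAergic interneurons: Gad1 (ENSRNOG00000000007), Gad2 (ENSRNOG00000018200), Slc32a1 (ENSRNOG00000015393), Sst (ENSRNOG00000001837), Pvalb (ENSRNOG00000006471) and Vip (ENSRNOG00000018808). They were chosen by name, with earlier results of these data known, and are 6 of the 32883 genes in the count table. RNA-seq was done on cell layers cut by laser capture microdissection from the hippocampus of 4 male Wistar rats aged 3 months. No treatment is named for them. The pyramidal layer of CA1, CA2 and CA3 and the granule cell layer of the dentate gyrus (DG) each had 4 columns of counts. Their replicate numbers were taken to mark the rat, which the labels do not state. All groups share strain, sex and age, and by their labels differ only in the subfield. Levels are given as CPM, read counts scaled to a common library size after TMM normalization.

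The layers are packed with glutamatergic principal cells, and the interneurons lying in or beside them are a minority. Interneurons make GABA from glutamate with the decarboxylases GAD67, encoded by Gad1, and GAD65, encoded by Gad2, and load it into synaptic vesicles with the transporter VGAT, encoded by Slc32a1. Somatostatin (Sst), parvalbumin (Pvalb) and vasoactive intestinal peptide (Vip) mark largely separate classes, which contact mainly the dendrites, the cell bodies and initial segments, and other interneurons, respectively. Granule cells of the DG are glutamatergic and are also known to contain GAD67.

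Total counts ran from 3216512 to 11933279 per column of the table. The CA2 columns of replicates 2 and 4 differed by no more than sampling noise (chi-square per degree of freedom 1.001), and so nearly did those of DG (1.04), against 2.80 to 43.5 in the other 22 pairs of the same subfield. Each of these pairs was summed and counted as 1 sample, called replicate 2, which leaves 4 libraries each for CA1 and CA3, and 3 each for CA2 and DG. Prox1, a granule cell transcription factor, was at 283 to 396 CPM in DG and at no more than 19.1 CPM elsewhere, and Wfs1, a CA1 marker, at 610 to 776 CPM in CA1. Replicate 2 of CA3 stood apart with Wfs1 at 106 CPM, where the other CA3 libraries had 8.65 to 13.8 CPM. Markers of glia, endothelium and mossy cells were not analysed here, since no table used here ties their names to the identifiers of the count table. In bulk layers fewer cells of a type and less RNA per cell cannot be told apart.

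All 6 genes were detected in all 14 libraries, from a lowest count of 18 for Vip to a highest of 2416 for Gad1. Their RefSeq promoters (build GRCr8, 250 bases before to 50 bases after the annotated start) were found for 6 of 6 genes. They were searched on both strands for the cAMP response element (CRE, TGACGTCA), its core TGACG, which lies within it, and the TATA box TATAAA. No CRE stood in the 250 bases before any of the 6 annotated starts, where 1.59% of 33469 promoters hold it. The search was extended to the whole 300 bases after that result. Sst, a textbook target of the CRE-binding factor CREB, then showed a CRE that begins at base 3 counted from the annotated start. In this window 1.83% of all promoters hold it. Where transcription begins was not measured here, so on which side of the start in use this CRE lies cannot be told. In the 250 bases before the start 3 of 6 genes had the core (18.2% of all promoters) and 2 of 6, Gad1 and Vip, the TATA box (12.9%). In the whole window 4 of 6 had the core (21.2%), Sst being added through its CRE, and the same 2 the TATA box (14.2%). The TATA box letters began 213 bases before the annotated start in Gad1, and 175, 165 and 48 bases before it in Vip. The 30 bases around the CRE of Sst and around the first core in the other 3 genes are shown with the motif in capitals, at chr11:90461537-90461566 (plus strand), chr3:167687052-167687081 (plus), chr7:111666510-111666539 (minus) and chr1:44470370-44470399 (plus).
Sst: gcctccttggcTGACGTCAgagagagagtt
Slc32a1: cgcgtagctgttcTGACGctgccgtcgccg
Pvalb: gatggtcccTGACGgcgggatcctgatcaa
Vip: gggatcaccactgTGACGtctttcgaggag

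The core began 180 bases before the start in Slc32a1, 241 in Pvalb and 97 in Vip. The promoters of Gad2 and Sst are printed for contrast, as the gene without any of these motifs in its window and the gene whose CRE begins just past the printed stretch, within the 30 bases shown first. They cover the 250 bases before the start, at chr17:89671468-89671717 and chr11:90461296-90461545, both on the plus strand. These matches describe the letters only, and the files hold no measurement of a factor at these sites.
Gad2: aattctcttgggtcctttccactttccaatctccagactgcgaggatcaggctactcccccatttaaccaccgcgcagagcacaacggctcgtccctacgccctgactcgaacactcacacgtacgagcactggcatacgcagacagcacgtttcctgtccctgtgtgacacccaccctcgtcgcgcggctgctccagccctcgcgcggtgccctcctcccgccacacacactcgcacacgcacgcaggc
Sst: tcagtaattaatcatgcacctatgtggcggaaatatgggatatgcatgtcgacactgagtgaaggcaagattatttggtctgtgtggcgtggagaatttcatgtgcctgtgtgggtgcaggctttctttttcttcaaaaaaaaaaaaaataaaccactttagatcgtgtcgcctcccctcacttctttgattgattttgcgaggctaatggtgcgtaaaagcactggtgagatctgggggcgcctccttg

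Gad1 was highest in the granule cell layer. In DG its CPM was 136, 157 and 146 in replicates 1 to 3, and in CA2 it was 121, 114 and 112. In CA1 the values were 98.4, 92.8, 83.9 and 82.9, and in CA3 103, 87.3, 94.4 and 89.1. The DG libraries lay above all 11 pyramidal libraries, and those of CA2 above all of CA1 and CA3. Means were 146 ± 10.5 CPM in DG (SD, n = 3), 116 ± 4.49 in CA2 (n = 3), 93.5 ± 7.11 in CA3 (n = 4) and 89.5 ± 7.42 in CA1 (n = 4). By edgeR's quasi-likelihood test, adjusted over 17174 genes by the Benjamini-Hochberg method as for every adjusted p of a fold change here, Gad1 was lower than in DG by a log2 fold change of -0.71 in CA1 (SE 0.10, adjusted p = 1.03e-05), -0.65 in CA3 (SE 0.10, adjusted p = 2.32e-05) and -0.34 in CA2 (SE 0.11, adjusted p = 0.0164). CA1 was also lower than CA2 (log2 fold change -0.37, SE 0.10, adjusted p = 0.0163), a call that is lost without CA1 replicate 3 (adjusted p = 0.0505), CA1 replicate 4 (0.0534) or CA2 replicate 1 (0.0958). CA2 against CA3 missed the threshold (0.31, 95% interval 0.10 to 0.51, adjusted p = 0.0706), but passed it in 4 of the 5 fits with the rat as a block. Its adjusted p was 0.0166 to 0.0509 in the 4 block fits on distinct libraries and 0.0131 in the block fit of all 16 columns. Without a block it passed by DESeq2 (adjusted p = 0.0273). By edgeR without a block it passed with another filter on low counts (0.0487), with 16 columns (0.0411) and without CA3 replicate 1 (0.0452). The fits of 16 columns count the columns of each repeated library as separate samples. CA2 against CA3 passed in 8 of 25 other settings, with adjusted p up to 0.226. The lowest neighbours in this order, CA3 and CA1, overlapped (CA1 over CA3 -0.06, interval -0.26 to 0.14).

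**Figure D1:**
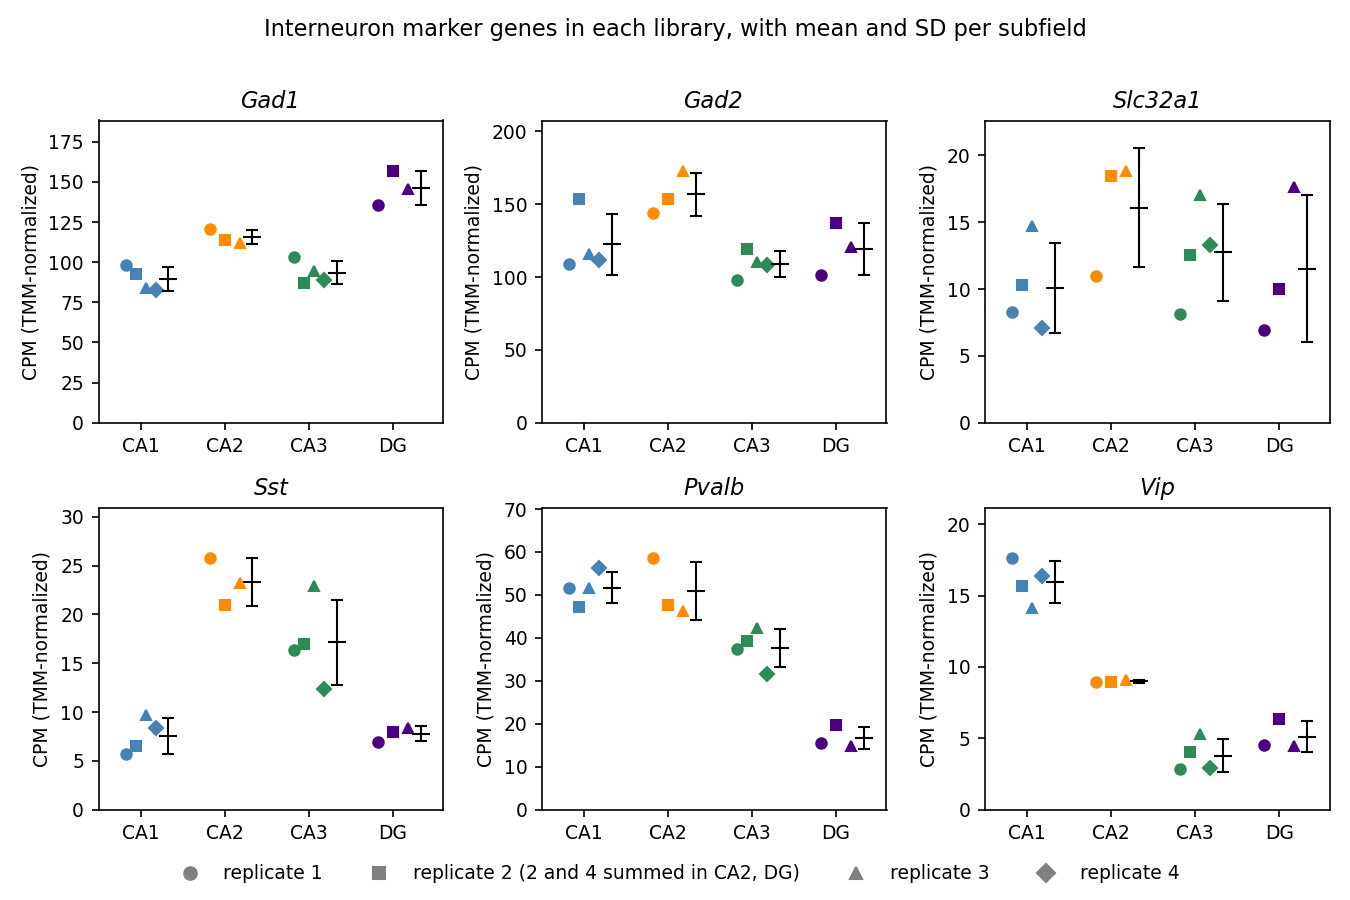
CPM of each of the 6 genes (y axis, from 0) in each library by subfield (x axis), with marker shape for the replicate number and black bars for mean and SD. Gad1 sits highest in DG at 136 to 157, Pvalb lowest in DG at 14.9 to 19.7, Sst highest in CA2 and CA3, and Vip highest in CA1 at 14.1 to 17.6.

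Gad2, whose product GAD65 is held mostly at nerve terminals, had another order. It was 144, 154 and 173 CPM in CA2, and 101, 137 and 120 in DG. In CA1 it was 109, 154, 116 and 112 CPM, and in CA3 97.97, 119, 110 and 108. CA2 lay above all CA3 and DG libraries, while CA1 and DG overlapped. Means were 157 ± 14.9 CPM in CA2 (n = 3), 123 ± 20.8 in CA1 (n = 4), 120 ± 17.8 in DG (n = 3) and 109 ± 8.69 in CA3 (n = 4). Gad2 was higher in CA2 than in CA3 (log2 fold change 0.53, SE 0.13, adjusted p = 0.0112 by edgeR), which is lost without CA2 replicate 3 (adjusted p = 0.0797), and higher in CA2 than in DG (0.39, SE 0.14, adjusted p = 0.0324). The second call is lost without any of CA1 replicate 3 (adjusted p = 0.0508), CA2 replicate 2 (0.0644), CA2 replicate 3 (0.171), DG replicate 1 (0.193) or DG replicate 3 (0.0814). CA1 against CA2 did not pass (-0.35, interval -0.62 to -0.09, adjusted p = 0.0731), but did in all 5 fits with the rat as a block (adjusted p between 0.00029 and 0.0116). By edgeR without a block it also passed with no filter on low counts (0.0467), with 16 columns (0.0452) and without CA1 replicate 2 (0.00945). The fit of 16 columns counts the columns of each repeated library as separate samples. Against CA1 and CA3, DG differed by 0.04 (interval -0.23 to 0.30) and -0.14 (interval -0.41 to 0.13) as CA1 over DG and CA3 over DG, neither past the threshold.

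Slc32a1, the vesicular GABA transporter gene, varied as much within subfields as between them. Its CPM was 8.25, 10.3, 14.7 and 7.11 in CA1, and 10.9, 18.5 and 18.8 in CA2. In CA3 it was 8.15, 12.5, 17.0 and 13.3, and in DG 6.92, 10.0006 and 17.6. All 4 subfields overlapped, and no comparison passed the threshold. Means were 16.1 ± 4.45 CPM in CA2 (n = 3), 12.7 ± 3.64 in CA3 (n = 4), 11.5 ± 5.50 in DG (n = 3) and 10.1 ± 3.35 in CA1 (n = 4). The widest difference, CA1 over CA2, was a log2 fold change of -0.65 (interval -1.24 to -0.06, adjusted p = 0.145 by edgeR). With the rat as a block it passed in all 5 fits (adjusted p between 0.00151 and 0.0106), and CA2 over DG (0.48, adjusted p = 0.227) passed in 4 of 5. Its adjusted p was 0.0133, 0.0577, 0.0343 and 0.0107 in the 4 block fits on distinct libraries, and 0.0015 in the fit that counts each repeated library 2 times. By edgeR without a block, CA1 over CA2 passed with no filter on low counts (adjusted p = 0.0331), and CA2 over DG without DG replicate 3 (0.0355). DG differed from CA1 and CA3 by intervals that include 0, at -0.77 to 0.44 for CA1 over DG and -0.46 to 0.73 for CA3 over DG.

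Gad2 and Slc32a1 also moved with the replicate number. With the repeated columns summed, Slc32a1 was highest in replicate 3 in 4 of 4 subfields and lowest in replicate 1 in 3 of 4. As deposited, the CA2 column of replicate 2 was at 20.2 CPM, above replicate 3 at 18.9. Gad2 was lowest in replicate 1 in 4 of 4 subfields and, with the repeated columns summed, highest in replicate 2 in 3 of 4. Likewise summed, Gad1 was highest in replicate 1, and Sst in replicate 3, each in 3 of 4 subfields. Replicate 1 also had the smallest share of its counts on the most counted gene in 4 of 4 subfields, at 13.5% to 17.7%, against 15.6% to 26.3% in the other libraries. The part of that share in these levels was not tested.

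**Figure D2:**
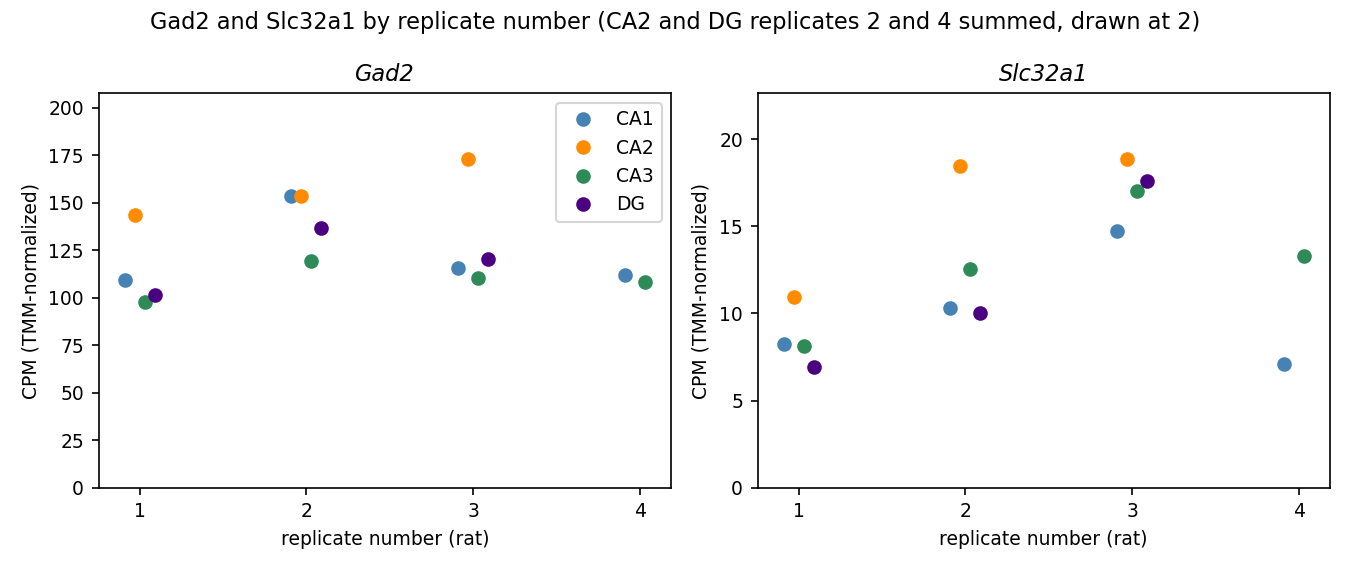
CPM of Gad2 and Slc32a1 (y axes, from 0) against the replicate number (x axis), taken to mark the rat. Points are coloured by subfield, with the summed pairs of CA2 and DG drawn at 2. With these pairs summed, Slc32a1 is highest in replicate 3 in 4 of 4 subfields, at 14.7 to 18.8 CPM.

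The proportion of Gad1 to Gad2 set the granule cell layer apart. As the log2 ratio of their counts within a library, which needs no scaling between libraries, it was 0.42, 0.20 and 0.28 in DG. It was -0.15, -0.73, -0.46 and -0.43 in CA1, -0.25, -0.43 and -0.62 in CA2, and 0.07, -0.45, -0.23 and -0.28 in CA3. Every DG library lay above every pyramidal library. Within each subfield the ratio was highest in replicate 1. The mean was 0.30 ± 0.12 in DG (n = 3), against -0.44 ± 0.24 in CA1, -0.44 ± 0.19 in CA2 and -0.22 ± 0.22 in CA3. DG exceeded the 11 pyramidal libraries by 0.66 (SE 0.09), a 1.58-fold higher ratio (exact two-sided permutation test, p = 0.00549, the smallest that 3 against 11 can give, adjusted p = 0.0165 over 3 ratios). The adjusted p was 0.0769 by the same exact permutation without DG replicate 1 or DG replicate 2, where 2 against 11 libraries cannot go below p = 0.0256 before adjustment. Libraries of the same rat are not independent. Within replicate numbers 1 to 4 of the 16 columns the difference was 0.53, 0.75, 0.71 and 0.58, but numbers 2 and 4 rest on the same repeated DG and CA2 libraries and are not separate evidence.

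The log2 ratio of Gad1 to Slc32a1 was 0.76 (SE 0.40) above the pyramidal mean in DG, with overlapping libraries, and did not pass (exact permutation p = 0.0604, adjusted p = 0.0907). Without DG replicate 3, whose value of 3.05 was the lowest of DG, the difference was 1.12 (exact permutation, adjusted p = 0.0385). The DG libraries left, at 4.28 and 3.97, then lay above every pyramidal library, of which CA3 replicate 1 was highest at 3.65. The unadjusted p of this exact permutation is then the smallest that 2 against 11 libraries can give, 0.0256. The ratio of Gad2 to Slc32a1 differed by 0.10 (SE 0.37, exact permutation p = 0.786). Its direction turned without DG replicate 1 (-0.09) or DG replicate 2 (-0.05).

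**Figure D3:**
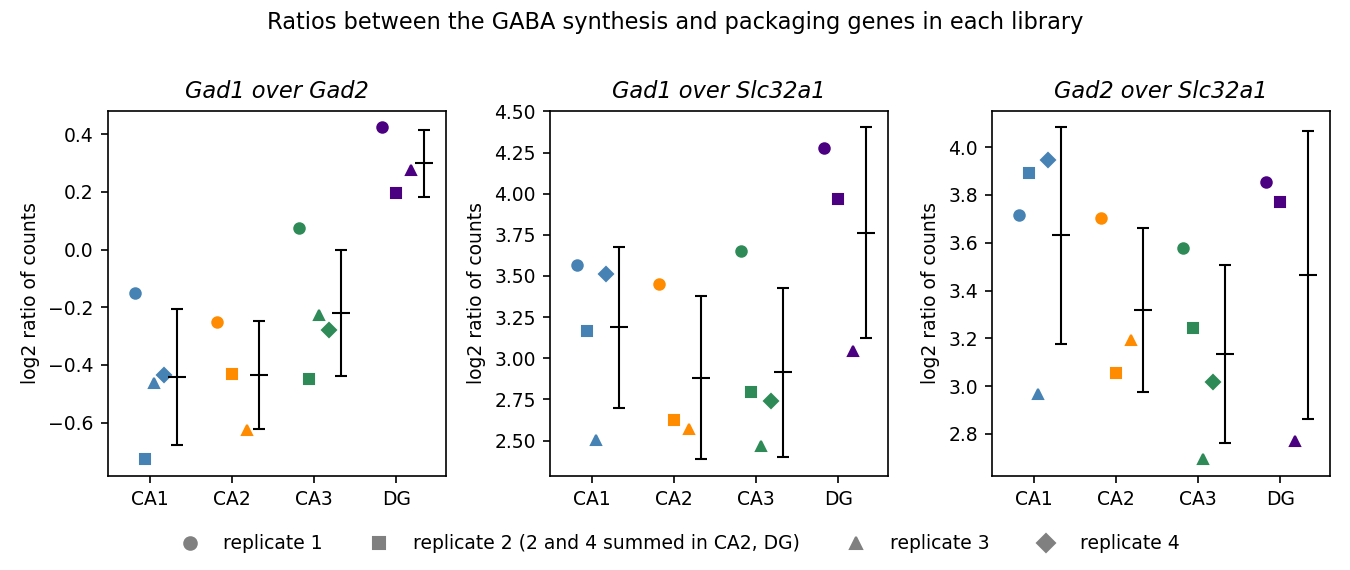
Log2 ratios of counts (y axes) of Gad1 over Gad2, Gad1 over Slc32a1 and Gad2 over Slc32a1 in each library by subfield (x axes), with mean and SD in black. For Gad1 over Gad2 the 3 DG libraries, at 0.20 to 0.42, sit above the 11 pyramidal libraries, whereas in the other 2 panels DG overlaps them.

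Sst, the peptide gene of dendrite-targeting interneurons, was about 3 times higher in CA2 than in CA1 or DG. Its CPM was 25.8, 20.9 and 23.2 in CA2 and 16.3, 17.0, 22.9 and 12.3 in CA3. It was 6.92, 7.99 and 8.38 in DG and 5.67, 6.54, 9.74 and 8.35 in CA1. CA2 and CA3 overlapped each other and lay wholly above CA1 and DG, which also overlapped. Means were 23.3 ± 2.43 CPM in CA2 (n = 3), 17.1 ± 4.38 in CA3 (n = 4), 7.76 ± 0.757 in DG (n = 3) and 7.57 ± 1.82 in CA1 (n = 4). The log2 fold change by edgeR was -1.64 for CA1 over CA2 (SE 0.20, adjusted p = 4.51e-06), -1.22 for CA1 over CA3 (SE 0.19, adjusted p = 4.56e-05), 1.57 for CA2 over DG (SE 0.21, adjusted p = 4.42e-06) and 1.14 for CA3 over DG (SE 0.20, adjusted p = 0.000107). The neighbours in the order did not differ past the threshold, with 0.43 for CA2 over CA3 (interval 0.05 to 0.80, adjusted p = 0.2) and -0.07 for CA1 over DG (interval -0.52 to 0.37).

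Pvalb, the calcium-binding protein of fast-spiking cells that contact cell bodies and axon initial segments, was lowest in the granule cell layer. Its CPM was 15.5, 19.7 and 14.9 in DG and 37.3, 39.4, 42.2 and 31.6 in CA3. It was 51.7, 47.2, 51.7 and 56.3 in CA1 and 58.6, 47.6 and 46.2 in CA2. DG lay below all pyramidal libraries, CA3 below those of CA1 and CA2, and CA1 and CA2 overlapped. Means were 51.7 ± 3.70 CPM in CA1 (n = 4), 50.8 ± 6.79 in CA2 (n = 3), 37.6 ± 4.48 in CA3 (n = 4) and 16.7 ± 2.66 in DG (n = 3). Over DG the log2 fold change by edgeR was 1.61 in CA1 (SE 0.14, adjusted p = 1.06e-08), 1.58 in CA2 (SE 0.15, adjusted p = 2.59e-08) and 1.16 in CA3 (SE 0.14, adjusted p = 9.48e-07). CA1 was higher than CA3 by 0.45 (SE 0.12, adjusted p = 0.00896). CA2 over CA3 was 0.43 (SE 0.13, adjusted p = 0.0474), which stayed past the threshold in 11 of 25 other settings and has adjusted p up to 0.257, without CA2 replicate 1. CA1 and CA2 differed by 0.02 (interval -0.25 to 0.29).

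Vip, the peptide gene of interneurons that contact other interneurons, was highest in CA1. Its CPM was 17.6, 15.7, 14.1 and 16.4 in CA1 and 8.91, 8.97 and 9.06 in CA2. It was 4.55, 6.36 and 4.43 in DG and 2.84, 4.06, 5.29 and 2.92 in CA3. CA1 lay above CA2, and CA2 above DG and CA3, with overlap only between the last pair. Means were 15.96 ± 1.46 CPM in CA1 (n = 4), 8.98 ± 0.0758 in CA2 (n = 3), 5.12 ± 1.08 in DG (n = 3) and 3.78 ± 1.15 in CA3 (n = 4). The log2 fold change by edgeR was 2.04 for CA1 over CA3 (SE 0.19, adjusted p = 4.51e-08), 1.59 for CA1 over DG (SE 0.20, adjusted p = 1.77e-06) and 1.22 for CA2 over CA3 (SE 0.21, adjusted p = 0.00039). CA1 was higher than CA2 by 0.83 (SE 0.19, adjusted p = 0.00382) and CA2 higher than DG by 0.77 (SE 0.21, adjusted p = 0.0073). CA3 over DG was -0.45 (interval -0.90 to 0.00, adjusted p = 0.107), and without CA3 replicate 3 it was -0.66 (adjusted p = 0.0215).

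**Figure D4:**
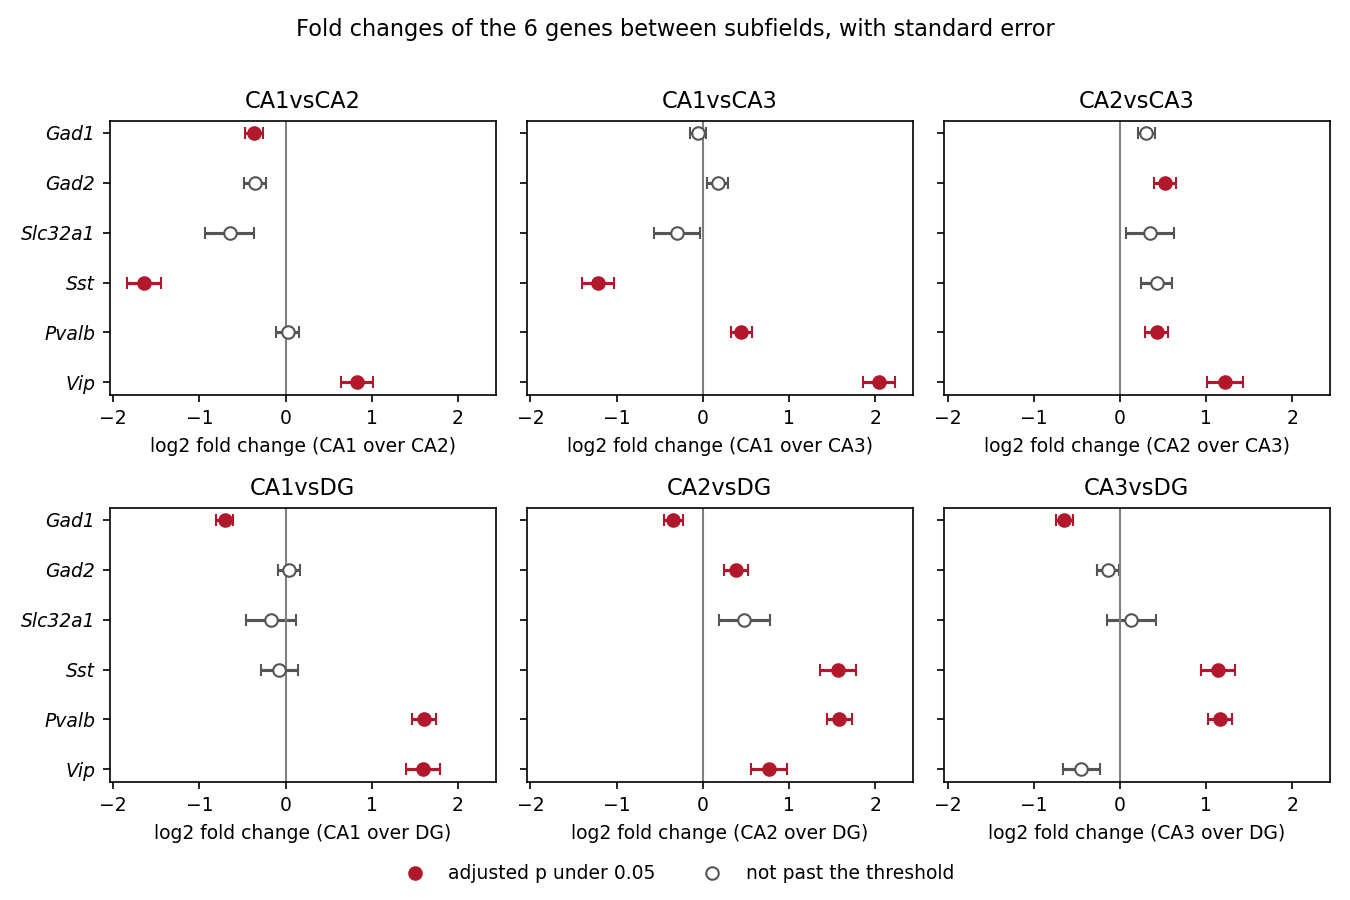
Log2 fold change (x axis, first subfield over second) with SE for the 6 genes (y axis) in each of the 6 comparisons. Filled red points passed an adjusted p of 0.05, among them Vip at 2.04 for CA1 over CA3 and Sst at -1.64 for CA1 over CA2, and Slc32a1 is open in all 6 panels.

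Against CA1, Sst was higher and Vip lower in both CA2 and CA3. The log2 ratio of Sst to Vip counts was 2.18 ± 0.21 in CA3 (n = 4), 1.36 ± 0.15 in CA2 (n = 3), 0.61 ± 0.29 in DG (n = 3) and -1.09 ± 0.46 in CA1 (n = 4). No library of CA1 was above 0, and no library elsewhere was below it. The log2 ratio of Pvalb to Sst was 2.79 ± 0.32 in CA1, against 1.09 ± 0.25 in DG, 1.16 ± 0.20 in CA3 and 1.12 ± 0.11 in CA2. These ratios were chosen after their values were seen and carry no test.

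**Figure D5:**
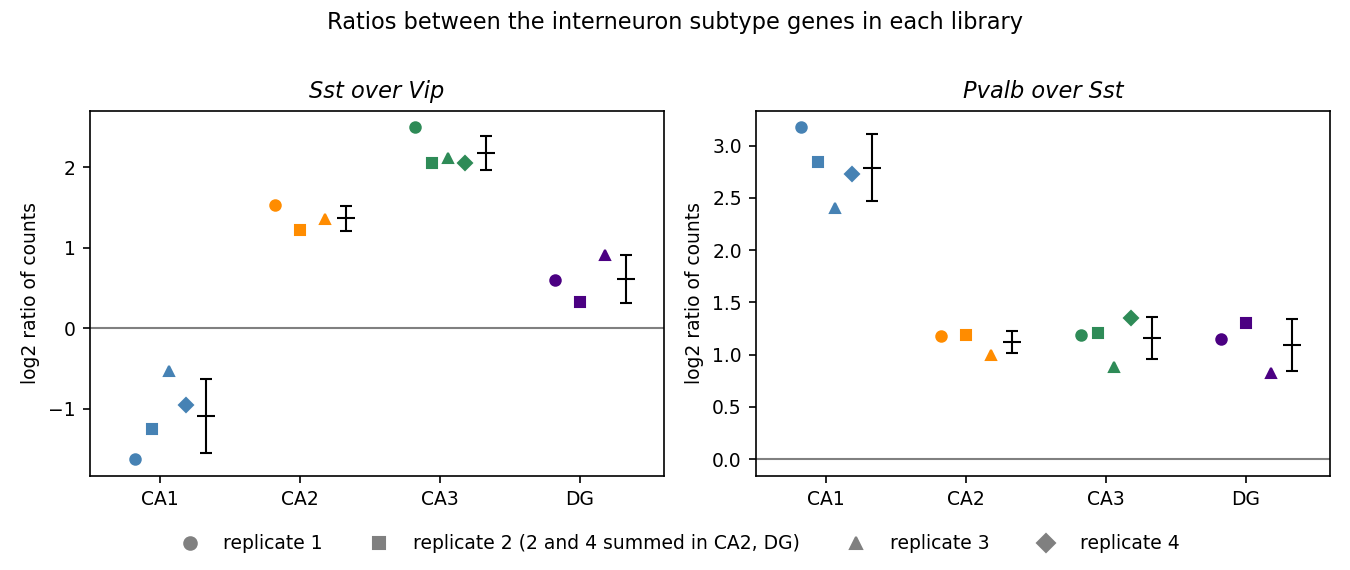
Log2 ratios of counts (y axes) of Sst over Vip and Pvalb over Sst in each library by subfield (x axes), with mean and SD in black and a grey line at 0. The Sst to Vip ratio is below 0 in the CA1 libraries only, and the Pvalb to Sst ratio averages 2.79 in CA1 against 1.09 to 1.16 elsewhere.

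By comparison, the count of genes past the threshold was read against all 17174 genes. Between CA1 and CA2, Gad1 and Sst were higher in CA2, as were 8.00% of all genes, and Vip in CA1, as were 6.31%. With the rat as a block 5 of the 6 genes passed there. In the block fits on distinct libraries 19.2% to 20.6% of all genes passed in either direction, against 14.3% without the block. With all 16 columns these shares were 22.4% with the block and 16.6% without it. Between CA1 and CA3, Pvalb and Vip were higher in CA1 (12.1% of all genes) and Sst in CA3 (12.7%). Between CA2 and CA3, Gad2, Pvalb and Vip were higher in CA2 (4.16%) and none in CA3 (3.48%). Leaving out CA2 replicate 3 left 1 of these 3. Against DG, where more genes of any kind differed, Pvalb and Vip were higher in CA1 (15.1%) and Gad1 in DG (14.2%). CA2 had 4 of the 6 genes higher, Gad2, Sst, Pvalb and Vip (18.9%), with Gad1 higher in DG (16.5%). In CA3 Sst and Pvalb were higher (20.6%), and in DG Gad1 was (19.7%). The median size of the log2 fold change of the 6 genes was 0.51 between CA1 and CA2, against 0.29 over all genes, 0.37 between CA1 and CA3, against 0.33, and 0.43 between CA2 and CA3, against 0.23. Against DG it was 0.44 for CA1, 0.63 for CA2 and 0.55 for CA3, where all genes had 0.39, 0.48 and 0.49. In all, 20 of 36 tests passed, where 25.3% of the tests over all genes and the 6 comparisons did, and 16 of these 20 passed in each of 25 other settings.

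Genes with the most similar profile over the 14 libraries were taken from 126 named genes with a mean of at least 5 CPM. These names come from a list of subfield markers that the study chose on these same samples, so each gene has a subfield pattern by construction. For Gad1 they were Mkx (Pearson r 0.936), Slc44a5 (0.923) and Ntf3 (0.905), the last a neurotrophin gene. Ntf3 was at 41.1 ± 6.68 CPM in DG, 10.2 ± 0.993 in CA2, 2.90 ± 0.970 in CA1 and 2.84 ± 0.0632 in CA3. Vip was most like Arhgap12 (0.936) and the serotonin receptor genes Htr1b (0.919) and Htr5b (0.906). Pvalb was most like Met (0.832), Cyp1b1 (0.813) and Lyzl4 (0.812). Sst was most like Amigo2 (0.821), Frem3 (0.746) and Cyp1b1 (0.723). The likeness was lower for Gad2, with Cacng5 at 0.707, AABR07001734.1 at 0.676 and Sfrp2 at 0.674, and for Slc32a1, with Cyp1b1 at 0.470, Cacng5 at 0.467 and Amigo2 at 0.450. The libraries share rats and subfields, and these values are descriptions.

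Among the 6 genes, Pvalb and Vip correlated at r 0.59 over the 14 libraries and 0.67 after subfield means were removed, Sst and Pvalb at 0.37 and 0.58, and Gad2 and Slc32a1 at 0.50 and 0.45. Gad1 and Pvalb correlated at -0.72 over all libraries but at 0.27 within subfields, and Gad1 and Gad2 at 0.23 and 0.08. These are also descriptions over libraries that share rats.

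Of 87 other genes of GABA signalling and interneuron subtypes that were listed, 4 could be tied to an identifier, all through the study's own marker list, so their direction is not independent of these samples. Gabrd, the delta subunit of extrasynaptic GABA-A receptors, was at 67.8 ± 6.65 CPM in DG (n = 3), 11.4 ± 1.74 in CA1 (n = 4), 7.40 ± 0.644 in CA2 (n = 3) and 4.22 ± 2.26 in CA3 (n = 4). Penk, the enkephalin precursor gene, was at 49.9 ± 5.96 CPM in DG, against 4.90 ± 0.856 in CA1, 6.73 ± 1.08 in CA2 and 4.20 ± 1.41 in CA3. The receptor subunit gene Gabrr2 was highest in CA1, at 14.9 ± 2.04 CPM against 3.12 ± 1.05 in CA2, 2.58 ± 0.399 in CA3 and 2.01 ± 0.444 in DG. Gabra6 was at 5.002 ± 0.653 CPM in CA2 and 0.573 ± 0.445 in CA1, where its highest count was 13. It had at most 3 counts in any CA3 library and 1 in any DG library.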

How the data were processed

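Layers were cut by laser capture microdissection and sequenced from stranded total RNA libraries. The authors aligned reads with STAR to Rnor6 and deposited raw counts per Ensembl gene. The counting program and its strand setting are not given in the sources used here, so reads of antisense or overlapping genes may be included. The deposited tables of the authors' DESeq2 comparisons (fold changes and p-values) were not used. Members and gene lists were chosen with earlier results of these data known.

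Columns of 1 subfield with a chi-square per degree of freedom under 1.5 were summed. Genes with more than 10 summed counts were fitted with edgeR 4.0.16 in R 4.3.3 (TMM, quasi-likelihood, 1 coefficient per subfield), with a Benjamini-Hochberg adjusted p under 0.05 as threshold. SE is the fold change divided by the root of F. Ratios of counts, with 0.5 added, were tested by exact permutation. Named were the 6 members, the 3 named genes most correlated with each over the libraries (log2 CPM, prior count 2), and listed genes. DESeq2 1.42.0, other size factors and filters, all 16 columns, and leaving out each library were alternatives, and the script was tested on simulated data.

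A replicate number was taken to mark a rat, since the labels number replicates alike in each subfield and the methods give 4 rats. No label names the animal, so this is an assumption. Over 10357 genes, same-numbered libraries of 2 subfields deviated together with a median correlation of 0.24 (from -0.11 to 0.65, n = 24 pairs, 19 over 0.1), against -0.08 for different numbers (n = 72). Deviations were taken from subfield means, so the negative value follows from the positive one and is not separate evidence. Pairs of replicate 1 were at 0.56 to 0.65, and those of replicates 2 to 4 at -0.11 to 0.41. Pairs of numbers 2 and 4 also reuse the repeated CA2 and DG libraries. Which rat the repeated CA2 and DG columns belong to is not known, so the block was fitted with all 16 columns and with each of 4 assignments. Promoter sequences are from RefSeq, build GRCr8.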

Additional observations from a re-analysis of the deposited data

Results flagged for a closer look

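Gad2 in CA1 had 1 library far from the others: replicate 2 was at 154 CPM, and the remaining 3 at 109 to 116 CPM. Its gap to the nearest library was 0.856 of the whole range, over the critical value of 0.829 for 4 samples. This was the only such library among 18 groups of 4 libraries, 12 of a gene and 6 of a ratio in CA1 or CA3, and chance gives about 1 in 20. Without it, Gad2 was lower in CA1 than in CA2 by edgeR (log2 fold change -0.48, adjusted p = 0.00945). With all libraries this missed the threshold (adjusted p = 0.0731 by edgeR). High Gad2 in replicate 2 was not particular to CA1. With the repeated columns summed, replicate 2 was highest in 3 of 4 subfields, CA1, CA3 and DG.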

How the results depend on the processing

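Of the 20 calls, 16 were kept in all 25 other settings. Gad1 between CA1 and CA2 was kept in 22, Gad2 between CA2 and CA3 in 24, Gad2 between CA2 and DG in 20 and Pvalb between CA2 and CA3 in 11, and the cause was not tested. The number of the 6 genes called between CA1 and CA2 rose from 3 to 5 without a filter on low counts and in all 5 fits with the replicate block, and ranged from 2 to 4 when 1 library was left out. Between CA2 and CA3 it ranged from 1 to 3, with 1 without CA2 replicate 3. Over all genes, calls between CA1 and CA2 numbered 2458 and with the block 3290, 3516, 3515 and 3545 with the repeated pairs assigned, and between CA2 and CA3 1313 and with the block 2028, 2079, 2062 and 2219. With 16 columns they went from 2858 to 3850 and from 1737 to 2615. Apart from these and the Gad1, Gad2 and Slc32a1 calls given with the levels, the block changed no call of the 6 genes. The difference in the Gad1 to Gad2 ratio was 0.64 within rats under the replicate block (exact sign-flip test, adjusted p = 0.188, over 16 columns, which counts the repeated DG and CA2 libraries as 2 rats, and cannot go below p = 0.125) and 0.60 to 0.71 without 1 library, at adjusted p = 0.0769 by exact permutation without DG replicate 1 or 2, where the smallest unadjusted p is 0.0256. That of Gad1 to Slc32a1 was 0.88 with 16 columns (exact permutation, adjusted p = 0.0198), but these count the repeated libraries as separate samples. With those summed, its adjusted p was 0.0907 by exact permutation. Without 1 library this difference was 0.50 to 1.12. That of Gad2 to Slc32a1 ran from -0.094 to 0.45 without 1 library, -0.094 without DG replicate 1, and was -0.05 without DG replicate 2. Directions turned only for differences that did not pass. For Gad2, CA1 over DG was -0.00064 with 16 columns, -0.013 and -0.049 under blocks with the DG pair as rat 4, and -0.10 to 0.11 without 1 library. For Pvalb, CA1 over CA2 was -0.0011 under the block with the CA2 pair as rat 4 and the DG pair as rat 2, and -0.046 to 0.16 without 1 library (-0.01 without CA1 replicate 4, -0.0014 without CA2 replicate 2). Without 1 library, CA1 over DG ran from -0.28 to 0.023 for Sst and from -0.44 to 0.22 for Slc32a1, and CA3 over DG from -0.11 to 0.53 for Slc32a1. Libraries of 3 to 4 per subfield limit the precision, and Slc32a1 and Vip had as few as 23 and 18 counts in a library.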

Other observations

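Over 10329 genes with a mean of at least 5 CPM, named or not, the profile of Slc32a1 was most like ENSRNOG00000008052 (Pearson r 0.978 over 14 libraries that share rats and subfields) and ENSRNOG00000000867 (0.913), for which no symbol was used here. ENSRNOG00000008052 was between 92.5 and 106 CPM in the replicate 3 libraries of the subfields, and between 66.3 and 81.0 CPM in those of replicate 1. Both genes were singled out after their values were seen, and these are values with no test.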
